A study of Mus musculus with 4 samples.

Results

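Tet1, Tet2, Tet3 and Tdg encode the enzymes that turn over 5-methylcytosine, and they were followed here through the cell types of the newborn mouse kidney. The members were chosen by symbol and are 4 of the 31053 genes in each count matrix. Droplet single-cell RNA sequencing with 3′ tags gave 2 libraries of whole kidney from newborn mice, 1 per genotype. The control library was labelled Six2Cre and the other Six2CreTet2/3f/f, that is, with the same Cre and floxed Tet2 and Tet3, and the labels do not say how many animals a library holds. The second library is called floxed below. Six2 is a gene of nephron progenitors, so this Cre acts in those cells and the alleles stay recombined in the nephron cells that descend from them, whereas ureteric, stromal, vascular and blood cells arise from other precursors. Tet1 and Tdg were not targeted. The labels do not name the deleted exons, and a 3′ tag that lies outside the deleted stretch does not report the deletion, so the levels of Tet2 and Tet3 do not by themselves check recombination. Bisulfite sequencing of sorted progenitors, 1 sample per genotype, was not analysed here.

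Depth was counted in UMIs, unique molecular identifiers that each stand for 1 captured RNA molecule. There were 197745868 of them over 25736 control barcodes, and 115427704 over 22543 floxed barcodes. Filters kept 19493 control and 14393 floxed barcodes, called cells below, with medians of 5990 and 4776 UMIs. The labels give 10000 cells loaded per library, fewer than the barcodes kept in either. This conflict was not resolved, and if the label holds, not every kept barcode is a cell. A cut at the 10000 deepest barcodes would fall at 6824 control and 4134 floxed UMIs. The libraries shared 174 barcodes, 90 of them among the kept cells, and without these the progenitor-like log2 ratios of floxed over control described below were -0.10 for Tet1, -0.33 for Tet2, -1.15 for Tet3 and -0.70 for Tdg. Cells were sorted into classes by marker genes and are named as class-like below, and 12 classes had at least 100 cells in each library. With 1 library per genotype there was no replicate check and no test, and all intervals are 95% intervals that cover counting error only. The progenitor-like class carried these defining markers in both libraries: Six2 stood at 89.4 control and 95.6 floxed CPM (the UMIs of a gene scaled to the class total), Cited1 at 188 and 175 CPM and Eya1 at 111 and 145 CPM.

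The Tet proteins are dioxygenases that use iron and 2-oxoglutarate to oxidise 5-methylcytosine in CG dinucleotides to 5-hydroxymethylcytosine and on to 5-formylcytosine and 5-carboxylcytosine. Thymine DNA glycosylase, the product of Tdg, removes the last 2 of these bases, and base excision repair then fills the gap with an unmodified cytosine. Tet1 and Tet3 carry a CXXC domain that binds CG-rich DNA, and Tet2 does not, having lost that part to the neighbouring gene Cxxc4. In the kidney, nephron progenitors self-renew in the cap mesenchyme and, on induction, pass through committed intermediates to podocytes and tubule cells.

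In GRCm38.p6, Tet1 (ENSMUSG00000047146) lies at chr10:62804570-62887469 on the minus strand, Tet2 (ENSMUSG00000040943) at chr3:133463677-133545136 on the minus strand, Tet3 (ENSMUSG00000034832) at chr6:83362373-83457208 on the minus strand and Tdg (ENSMUSG00000034674) at chr10:82629814-82650799 on the plus strand. Tet3 and Tdg are the members whose levels differed most between the libraries, and the 250 bases before their listed start sites are shown 5′ to 3′ from RefSeq, with each CG, the dinucleotide on which these enzymes act, in capitals. The Tet3 stretch is chr6:83441679-83441928 on the minus strand, inside the annotated span of the gene, and the Tdg stretch is chr10:82629588-82629837 on the plus strand.
Tet3: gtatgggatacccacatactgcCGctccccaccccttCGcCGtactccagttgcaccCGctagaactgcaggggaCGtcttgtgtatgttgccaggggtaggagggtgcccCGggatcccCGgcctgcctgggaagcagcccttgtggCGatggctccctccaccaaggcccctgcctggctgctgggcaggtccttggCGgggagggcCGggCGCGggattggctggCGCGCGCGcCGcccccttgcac
Tdg: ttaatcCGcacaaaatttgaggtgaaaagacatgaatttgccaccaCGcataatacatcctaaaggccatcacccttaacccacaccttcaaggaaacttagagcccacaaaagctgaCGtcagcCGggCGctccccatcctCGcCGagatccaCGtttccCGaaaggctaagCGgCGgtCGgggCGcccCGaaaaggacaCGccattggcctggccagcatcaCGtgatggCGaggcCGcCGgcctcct
The Tet3 stretch holds 17 CG and the Tdg stretch 19, against a median of 6 over 27025 promoters of the same length. At least as many were found in 23.6% of those promoters for Tet3 and in 19.6% for Tdg. The same stretch before Tet1 holds 15 CG and that before Tet2 holds 51, a count reached by 0.0703% of promoters. These counts describe the sequence only, since methylation was not analysed here.

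Tet3, one of the 2 targeted genes, had lower levels in the floxed library in all 5 classes of the nephron lineage, and by less in the classes outside it. In progenitor-like cells it stood at 90.8 CPM in the control (87.1 to 94.8; 2174 UMIs in 2528 cells) and 40.9 CPM in the floxed library (37.1 to 45.0; 418 UMIs in 1521 cells). That is a log2 ratio of floxed over control of -1.15 (-1.31 to -1.0005), or 2.22-fold lower. Committed nephron-like cells had 77.7 and 35.8 CPM, a log2 ratio of -1.12 (-1.31 to -0.93). Podocyte-like cells, the filtering epithelium of the glomerulus, had the highest level in both libraries, at 199 and 107 CPM, with a log2 ratio of -0.90 (-1.07 to -0.73). The loop and distal tubule-like class (loop of Henle and distal tubule) had 67.8 and 37.5 CPM (log2 ratio -0.86, -1.07 to -0.65) and proximal tubule-like cells 56.0 and 35.1 CPM (-0.67, -0.99 to -0.37). The floxed proximal tubule-like level (28.9 to 42.3 CPM) overlapped that of floxed erythroid-like cells (28.4 CPM, 21.2 to 37.3), a class with little Tet3. Erythroid markers, haemoglobin genes among them, made up 401785 CPM of that floxed class, which lowers the CPM of its other genes. The loop and distal tubule-like class may hold cells from outside the lineage. A cluster in it (242 control and 185 floxed cells) had Atp6v1g3 and Atp6v0d2 among its leading genes, beside Slc12a3. With a looser cell filter these 2 genes led a separate unnamed cluster with Foxi1, scored nearest to ureteric bud and collecting duct. Markers of that class, Calb1 of both lists among them, summed to 1780 and 1095 CPM here. Their part was not tested.

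Outside the lineage the Tet3 ratios were smaller. Ureteric bud and collecting duct-like cells had 79.8 control and 62.5 floxed CPM (log2 ratio -0.35, -0.49 to -0.22), and stroma-like cells 52.0 and 40.1 CPM (-0.38, -0.49 to -0.26). Endothelium-like cells had 65.6 and 52.4 CPM (-0.32, -0.54 to -0.11) and macrophage-like cells 75.5 and 55.4 CPM (-0.44, -0.80 to -0.10). In these 4 classes the interval lay below 0. Mural and renin-like cells had 63.6 and 56.8 CPM, neutrophil-like cells 37.7 and 36.3 CPM and erythroid-like cells 30.3 and 28.4 CPM, and there the interval held 0 and the sign turned under some alternatives.

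**Figure D1:**
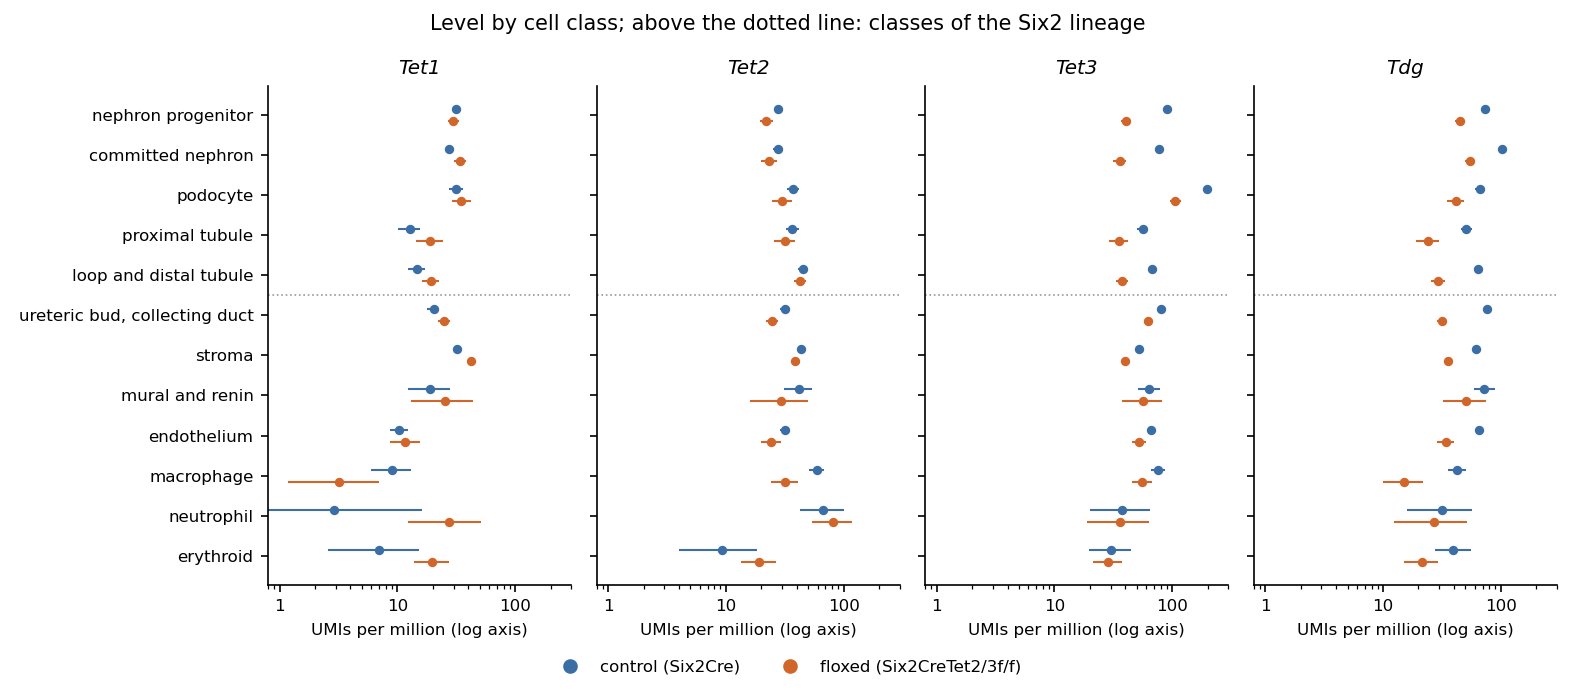
Level of each member in the 12 cell classes, in CPM on a log axis, for the control library (blue) and the floxed library (orange), 1 library each. Points are class sums and bars are 95% Poisson intervals for counting error; the lower bar of Tet1 in control neutrophil-like cells, which rests on 1 UMI, runs off the axis. Tet3 is highest in podocyte-like cells in both libraries (199 and 107 CPM), and blue lies right of orange for Tdg in every class.

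To set these ratios against the rest of the transcriptome, a size rule counted a gene as lower or higher in a class. It asked for a level of 10 CPM or more in 1 library or both, and for an interval of the ratio that lay outside 1.5-fold in full. Tet3 met this rule as lower in 4 of the 5 lineage classes (progenitor-, committed nephron-, podocyte- and loop and distal tubule-like) and in 0 of the 7 other classes. Among all genes with that level, the share counted as lower was 1.54% in progenitor-like, 0.814% in committed nephron-like, 1.58% in podocyte-like, 2.50% in proximal tubule-like and 2.81% in loop and distal tubule-like cells. Outside the lineage it was 1.75% in ureteric bud and collecting duct-like, 2.06% in stroma-like, 0.540% in mural and renin-like, 1.45% in endothelium-like, 2.79% in macrophage-like, 0.714% in neutrophil-like and 0.531% in erythroid-like cells. The median log2 ratio of all genes lay between -0.06 and 0.04 in 10 of the classes, and was -0.11 in neutrophil-like and 0.24 in erythroid-like cells. The progenitor-like class had 206 higher and 130 lower genes in all, and 161 and 159 with TMM scaling, which trims extreme genes before the libraries are set to each other.

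The Tet3 ratios of the 5 lineage classes and the 7 other classes did not overlap. They ran from -1.15 to -0.67 inside (median -0.90) and from -0.44 to -0.06 outside (median -0.32). They did overlap under 3 alternatives, through macrophage-like cells at -0.74 (a narrow gate that classed each barcode on its own by lists of 5 markers, podocyte-like -0.60), -0.69 (cells thinned to 2000 UMIs, loop and distal tubule-like -0.67) and -0.65 (without cycling cells, proximal tubule-like -0.61). Progenitor-like minus stroma-like, the ratio differed by -0.78 (-0.97 to -0.59), and of the 35 pairs of an inside with an outside class 24 had a difference whose interval lay below 0 and 0 had one above. Classes of 1 library share that library, so these pairs are not replicates. The share of all genes that separate in this way, by range or by pairs, is not given here. How unusual the Tet3 separation is was therefore not assessed. Taken cluster by cluster, over clusters with at least 50 cells in each library, the separation was not complete: 8 lineage clusters ran from -1.37 to -0.57 and 15 others from -0.67 to 0.24, with unnamed clusters left out of both. The outside cluster with the lowest ratio was stroma-like, led by Postn, Lum and Dcn, with 62.3 control and 39.2 floxed CPM. The inside cluster with the highest ratio was podocyte-like, with 245 and 165 CPM.

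**Figure D2:**
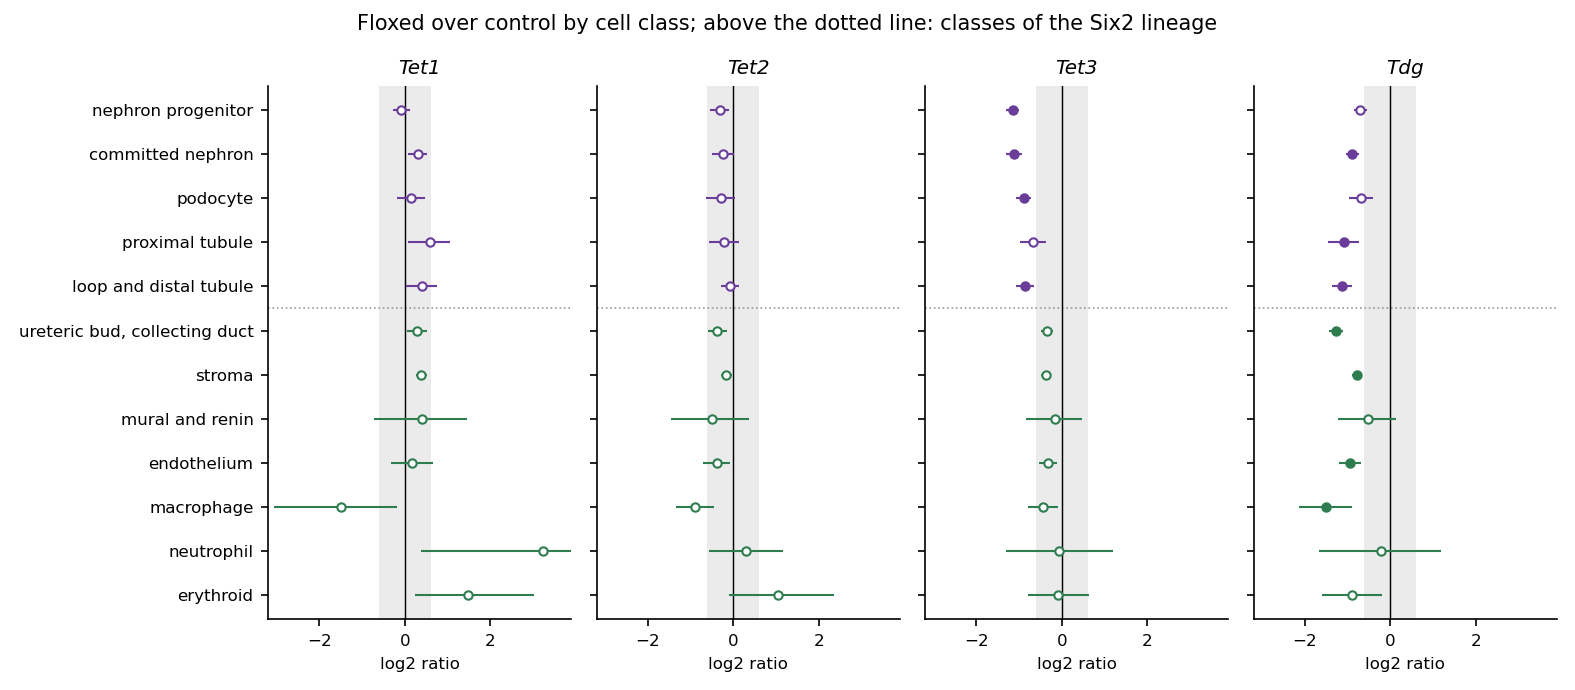
Log2 ratio of floxed over control for each member in the 12 classes, with 95% intervals for counting error; purple marks lineage classes, green the others, filled points are lower by the size rule, and the grey band spans 1.5-fold either way. For Tet3 all purple points (-1.15 to -0.67) lie left of all green points (-0.44 to -0.06), whereas for Tdg the 2 colours overlap; the interval of Tet1 in neutrophil-like cells runs off the axis.

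The podocyte-like class was put together differently in the 2 libraries. Its larger cluster held 597 control and 512 floxed cells, and its smaller cluster held 424 and 93. In the larger cluster Tet3 stood at 182 and 98.4 CPM, a log2 ratio of -0.89 (-1.08 to -0.69). In the smaller the log2 ratio was -0.57 (-0.96 to -0.20). The ratio of the whole class, -0.90, lay below both, and the cluster with the higher Tet3 level held a smaller share of the floxed cells. Both progenitor-like clusters had a lower Tet3 level in the floxed library: 90.7 and 42.1 CPM in the one led by Cited1 and Crym (1958 and 1322 cells), and 91.1 and 35.3 CPM in the one led by Six3 and Six2 (570 and 199 cells).

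In the 5 clusters that no marker list named, Tet3 was lower too, with intervals below 0 in each and log2 ratios from -0.997 to -0.60. The log2 ratio was -0.80 in the cluster led by Cpn1 and Osr2, -0.75 in that led by Nts and Nrxn3, whose best marker score was for stroma (next, mural and renin cells), -0.997 in that led by Cryab and Irx1, and -0.60 in that led by Gja4 and Sox17, genes of arterial endothelium, whose best score was for endothelium. Both ratios lay within the range of the lineage clusters. The last was a shallow cluster of 1416 control and 1171 floxed barcodes with medians of 1487 and 1436 UMIs led by AY036118, Lars2 and the erythroid gene Alas2, in which Tet3 stood at 35.0 and 19.1 CPM.

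Tet2, the other targeted gene, differed by 1.06- to 1.25-fold between the libraries in the 5 lineage classes. Progenitor-like cells had 27.6 control CPM (25.5 to 29.8; 660 UMIs) and 22.1 floxed CPM (19.3 to 25.2; 226 UMIs), a log2 ratio of -0.32 (-0.54 to -0.10). Committed nephron-like cells had 27.5 and 23.3 CPM, podocyte-like cells 37.2 and 30.2 CPM, proximal tubule-like cells 36.7 and 31.6 CPM and loop and distal tubule-like cells 45.0 and 42.6 CPM, and in these 4 classes the interval held 0. All 5 lineage ratios were negative, from -0.32 to -0.08, but none met the size rule, and none did outside.

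Outside the lineage Tet2 ratios ran from -0.89 to 1.04 and enclosed those inside. The upper end was that of erythroid-like cells, from 8 control and 35 floxed UMIs, with an interval that held 0 (-0.10 to 2.36). Macrophage-like cells had 59.0 control CPM (176 UMIs) and 31.8 floxed CPM (59 UMIs), a log2 ratio of -0.89 (-1.35 to -0.46), below the -0.32 of progenitor-like cells, the lowest in the lineage. Stroma-like cells had 43.4 and 38.8 CPM (-0.16, -0.28 to -0.04, but 0.21 with the planned gate, which classed each barcode on its own by the full marker lists), the ureteric bud and collecting duct-like class 31.9 and 24.6 CPM (-0.38, -0.60 to -0.16) and endothelium-like cells 31.7 and 24.3 CPM (-0.38, -0.71 to -0.07). Neutrophil-like cells had the highest Tet2 level in both libraries, 66.8 and 81.6 CPM, from 23 and 27 UMIs. Progenitor-like minus stroma-like, the Tet2 ratio differed by -0.16 (-0.41 to 0.09), an interval that holds 0 and reaches -0.41. Of the 35 pairs of classes, 4 had an interval below 0 and 5 one above.

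Tet1, which was not targeted, was near the same level in the 2 libraries in progenitor-like cells: 31.6 control CPM (29.4 to 33.9; 756 UMIs) and 29.9 floxed CPM (26.7 to 33.5; 306 UMIs), a log2 ratio of -0.08 (-0.27 to 0.12). In stroma-like cells it was higher in the floxed library, at 32.4 and 42.3 CPM, a log2 ratio of 0.39 (0.26 to 0.51). Committed nephron-like cells had 27.7 and 34.2 CPM (0.30, 0.08 to 0.53) and podocyte-like cells 31.4 and 34.9 CPM (0.15, -0.18 to 0.48). The interval lay above 0 in 7 of the 12 classes and below it in 1, and the share of all genes with as many such intervals is not given here. No class met the size rule in either direction. Macrophage-like cells, the 1 class with an interval below 0, were under its minimum of 10 CPM in both libraries and so could not meet it. Progenitor-like minus stroma-like, the ratio differed by -0.46 (-0.69 to -0.24). In the floxed library the Tet1 level was lowest in macrophage-like cells, which had 9.06 control and 3.23 floxed CPM from 27 and 6 UMIs. In the control it was lowest in neutrophil-like cells, where 1 UMI was counted, followed by erythroid- and then macrophage-like cells.

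Tdg had a lower level in the floxed library in each of the 12 classes, inside and outside the Six2 lineage, although in mural and renin- and neutrophil-like cells the interval held 0 and the sign turned under other settings (to 0.27 with the planned gate, and to 0.42 with cells thinned to 2000 UMIs). Progenitor-like cells had 73.3 control CPM (69.9 to 76.8; 1753 UMIs) and 45.0 floxed CPM (41.0 to 49.3; 460 UMIs), a log2 ratio of -0.70 (-0.85 to -0.55). Committed nephron-like cells, where Tdg was highest in both libraries, had 102 and 55.3 CPM (-0.89, -1.05 to -0.73). Proximal tubule-like cells had 51.0 and 24.0 CPM (-1.09, -1.46 to -0.73), loop and distal tubule-like cells 64.4 and 29.4 CPM (-1.13, -1.37 to -0.90) and podocyte-like cells 66.6 and 41.4 CPM (-0.68, -0.97 to -0.41). The podocyte-like value was -0.06 with the planned gate and -0.34 with a narrower one, and the committed nephron-like value was -0.50 without cycling cells.

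The Tdg ratios outside the lineage, from -1.50 to -0.23, enclosed those inside, from -1.13 to -0.68. Ureteric bud and collecting duct-like cells had 76.5 and 31.7 CPM (-1.27, -1.45 to -1.10), stroma-like cells 61.6 and 35.6 CPM (-0.79, -0.91 to -0.67), endothelium-like cells 65.5 and 34.1 CPM (-0.94, -1.21 to -0.69) and macrophage-like cells 42.6 and 15.1 CPM (-1.50, -2.14 to -0.90). Mural and renin-like cells had 72.7 and 50.5 CPM, neutrophil-like cells 31.9 and 27.2 CPM and erythroid-like cells 39.6 and 21.3 CPM. The interval lay below 0 in 10 of the 12 classes, and the median log2 ratio was -0.89 inside and -0.90 outside. By the size rule Tdg was lower in 7 of the 12 classes, 3 inside and 4 outside, against the shares of all genes given above. Progenitor-like minus stroma-like, the Tdg ratio differed by 0.09 (-0.10 to 0.28), an interval that leaves out the -0.78 of Tet3. The ratio was negative in 28 of 28 clusters, with an interval below 0 in 25. The shares of all genes with as many negative ratios, or as many intervals below 0, are not given here.

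RefSeq lists 2 genes named as pseudogene copies of Tdg, Tdg-ps and Tdg-ps2, and neither is listed in the matrices, so how reads shared with them were assigned is not given in the sources used here and the Tdg counts are uncertain to that extent. Markers of other cell types also differed between the libraries, those of proximal tubule and erythroid cells in every class but their own. Neutrophil and committed nephron markers were each higher in 10 of 11 other classes and lower in 1. Endothelium and mural and renin markers were each lower in 9 of 11 and higher in 2. The remaining lists were more mixed. The 11 proximal tubule markers summed to 82.3 to 212 CPM over the 11 other classes in the control and to 46.4 to 117 CPM in the floxed library, lower in 11 of 11, and in progenitor-like cells each of the 11 was lower. The 8 measured erythroid markers summed to 892 to 3338 CPM and to 1964 to 27040 CPM, higher in 11 of 11 classes, and in progenitor-like cells each of the 8 was higher. Their part in the ratios of the members was not tested. With haemoglobin, mitochondrial and ribosomal protein genes left out of the class total, the progenitor-like log2 ratio was -1.19 for Tet3 and -0.74 for Tdg. In the shallow unnamed cluster Tdg stood at 83.6 and 34.3 CPM (log2 ratio -1.29, -1.70 to -0.89).

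Detection per cell was compared after each cell was thinned at random to 2000 UMIs, which in the progenitor-like class left out 19 of 2528 cells in the control and 29 of 1521 in the floxed library. A Tet3 UMI was found in 14.9% of control (13.5 to 16.4%, exact Clopper-Pearson) and 7.24% of floxed progenitor-like cells (5.98 to 8.67%). Without thinning, at medians of 7588 and 6190 UMIs, the shares were 48.5% and 23.2%. Cells with 2 Tet3 UMIs were 1.196% and 0.134%. In erythroid-like cells, taken as a class with little Tet3, the thinned shares were 6.04% (2.80 to 11.2%) and 5.45% (3.36 to 8.29%), at unthinned medians of 4621 and 4080.5 UMIs. The control progenitor-like share lay above the erythroid-like one and the floxed one did not lie clear of it. Erythroid markers, haemoglobin genes among them, held 474350 control and 401785 floxed CPM of the erythroid-like class. Fewer of its 2000 UMIs were left for other genes. Its share is therefore not a like background and does not show that floxed progenitor-like Tet3 was at background. In podocyte-like cells the Tet3 share was 31.3% and 17.5%, and in stroma-like cells 9.14% (8.39 to 9.94%) and 8.03% (7.21 to 8.91%), with intervals that overlap. Inside the lineage the loop and distal tubule-like shares, 10.9% (8.24 to 14.1%) and 6.40% (4.42 to 8.92%), overlapped too. Those of committed nephron-like (12.4% and 6.52%) and proximal tubule-like cells (11.0% and 4.69%) had intervals that did not overlap.

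Tdg was found in 13.6% of control (12.3 to 15.04%) and 8.04% of floxed progenitor-like cells (6.71 to 9.54%), and in 11.4% and 6.18% of stroma-like cells, so its share was lower on both sides of the lineage. In erythroid-like cells the Tdg share was 7.38% and 2.45%. Tet2 was found in 5.14% and 4.83% of progenitor-like cells and Tet1 in 6.54% and 6.70%, differences of -0.32 (-1.70 to 1.07) and 0.17 (-1.43 to 1.76) percentage points that were not detectable at 2000 UMIs. At 3000 UMIs the Tet2 share was 8.13% of 2484 control and 5.83% of 1457 floxed cells, a difference of -2.30 points, and the Tet1 difference was -1.05 points. For Tet1 in erythroid-like control cells the count was 0 of 149 cells, with a Clopper-Pearson interval up to 2.45%. Without thinning, 3.92% of the 153 cells had a Tet1 UMI.

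**Figure D3:**
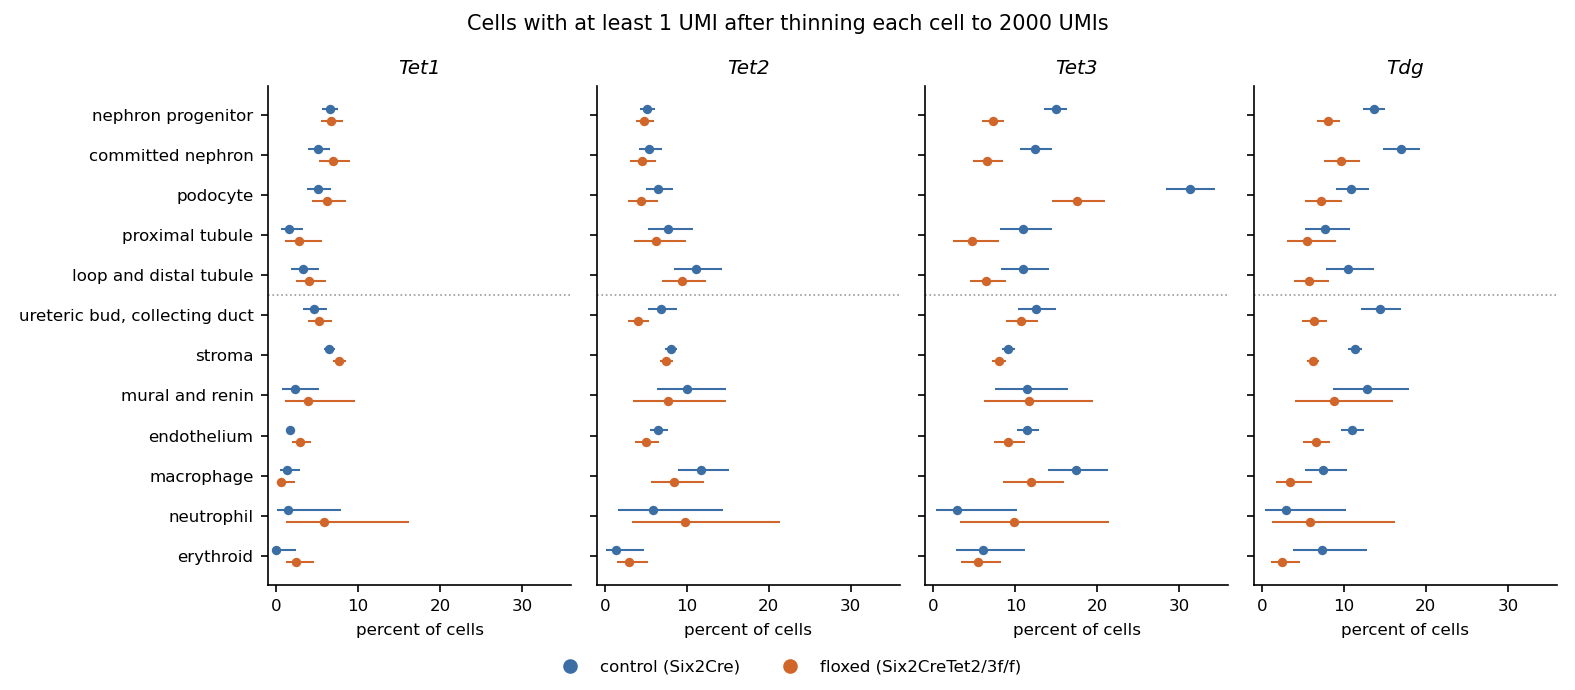
Percent of cells with at least 1 UMI of each member after thinning every cell to 2000 UMIs, by class and library (blue control, orange floxed), with 95% Clopper-Pearson intervals for counting error; classes above the dotted line belong to the Six2 lineage. For Tet3 the libraries separate in progenitor-like (14.9% and 7.24%) and podocyte-like cells (31.3% and 17.5%). They overlap in stroma-like cells (9.14% and 8.03%) and, inside the lineage, in loop and distal tubule-like cells (10.9% and 6.40%).

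Within the progenitor-like class the Tet3 difference was seen in cells with and without a captured Six2 UMI. Among thinned cells with a Six2 UMI (394 control and 259 floxed) a Tet3 UMI was found in 14.2% (10.9 to 18.1%) and 8.11% (5.09 to 12.1%), intervals that overlap at these cell numbers. Among those without one (2115 and 1233) it was found in 15.04% (13.5 to 16.6%) and 7.06% (5.69 to 8.63%). Cells were also divided by cycling, called at 3 or more UMIs of 38 cell cycle genes, with 703 control and 449 floxed cells at 2 or 3 such UMIs and so next to the threshold. The cycling share of the progenitor-like class was 42.8% in the control and 36.7% in the floxed library. The Tet3 log2 ratio was -1.36 (-1.93 to -0.82) in cycling and -1.04 (-1.43 to -0.66) in other progenitor-like cells. Tdg had -0.56 (-1.03 to -0.11) and -0.89 (-1.30 to -0.50).

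Counting the family together, a UMI of any of Tet1, Tet2 and Tet3 was found in 24.4% of control (22.7 to 26.1%) and 17.2% of floxed progenitor-like cells (15.3 to 19.2%) at matched depth. In podocyte-like cells it was 38.2% (35.1 to 41.3%) and 25.8% (22.3 to 29.7%), and in stroma-like cells 21.9% (20.8 to 23.0%) and 21.2% (19.9 to 22.5%). Tet2 and Tet3 were captured in the same cell in 0.877% of progenitor-like cells of the control and 0.536% of those of the floxed library, 22 and 8 cells.

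In the order of levels over the control classes, Tet3 in podocyte-like cells lay clear of the second class, progenitor-like cells, which lay clear of ureteric bud and collecting duct-like cells. The classes from there down did not differ from their neighbours beyond counting error. In the floxed library podocyte-like cells again came first, but progenitor-like cells came after ureteric bud and collecting duct-, mural-, macrophage- and endothelium-like cells. For Tdg, committed nephron-like cells lay clear of the next class in the control only. For Tet1 the upper 4 control classes, stroma-, progenitor-, podocyte- and committed nephron-like at 32.4 to 27.7 CPM, did not differ from their neighbours, and the last of them lay clear of the next class, ureteric bud and collecting duct-like cells. For Tet2, neutrophil- and macrophage-like cells came first in the control, and macrophage-like cells lay clear of the loop and distal tubule-like cells that followed.

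The genes whose log2(CPM + 1) followed each member most closely over the 12 control classes were named among 8957 genes, as a description of points that share 1 library. For Tet3 they were Faim, an inhibitor of Fas-induced cell death (Pearson r 0.94 in the control and 0.58 in the floxed library), Srp14, a subunit of the signal recognition particle (0.93 and 0.61), and Pkig, an inhibitor of protein kinase A (0.92 and 0.60). For Tdg they were Rif1, a replication timing factor (0.97 and 0.66), Zmynd19 (0.96 and 0.66) and Serbp1, an mRNA-binding protein (0.96 and 0.66). For Tet1 they were Bcl9, a coactivator of beta-catenin (0.97 and 0.69), Cdk7, a kinase of the transcription machinery (0.96 and 0.68), and Efna2, an ephrin ligand (0.95 and 0.75). For Tet2 they were Gyg, the glycogen primer glycogenin (0.96 and 0.76), Map2k1, a kinase of the ERK pathway (0.95 and 0.43), and Rab5b, an endosomal GTPase (0.95 and 0.72). Each correlation was lower in the floxed library, where it was not used to choose the genes. Between members, Tet1 and Tdg had r = 0.84 and 0.73, and Tet1 and Tet3 0.66 and -0.05. Across the classes each member also resembled itself in the other library, with r = 0.82 for Tet3, 0.79 for Tdg, 0.76 for Tet2 and 0.47 for Tet1.

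The other genes of the demethylation pathway were taken as a list. Of 48 listed genes, 38 were measured at 10 CPM or more in progenitor-like cells. Their median log2 ratio was 0.11, beside 0.04 over all 8432 genes. By the size rule 0 were lower, beside 1.54% of all genes, a share at which 0 of 38 does not set the list apart. Higher by the rule were 3, beside 2.44% of all genes. The 3 were Nthl1, a glycosylase for oxidised pyrimidines (9.32 control and 18.3 floxed CPM, log2 ratio 0.97), and the stress-response genes Gadd45a (12.7 and 23.2 CPM, 0.87) and Gadd45g (18.4 and 33.9 CPM, 0.88). In stroma-like cells 36 were measured, with 0 higher (1.81% of all genes were) and 1 lower (2.06% were). The lower one was Gadd45b, at 42.2 and 14.1 CPM (-1.58). The 36 genes had a median of 0.07, beside 0.00 for all genes.

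By role, the 5 measured glycosylases other than Tdg had a median log2 ratio of 0.21 in progenitor-like cells. The 8 repair genes that act after Tdg had 4 ratios above 0 and 4 below, and included Apex1, which cuts the strand at the abasic site (139 and 179 CPM, 0.37), and Parp1, a sensor of strand breaks (109 and 161 CPM, 0.56). The 11 measured genes listed around 2-oxoglutarate, for its supply, its use or later steps, had a median of 0.13. They included Idh2 at 142 and 197 CPM (0.47), Idh3b at 104 and 102 CPM (-0.02) and Glud1 at 91.9 and 97.3 CPM (0.08). Sdha, of a later step, stood at 95.7 and 107 CPM (0.17). The 6 measured Tet partners and CXXC proteins had a median of -0.10, with Cxxc5, a Tet2-binding CXXC protein, at 191 and 179 CPM (-0.10) and Wt1, a transcription factor that binds Tet2 and a progenitor and podocyte gene, at 229 and 212 CPM (-0.11). The 5 readers of 5-hydroxymethylcytosine had a median of 0.41, with Uhrf2 at 92.3 and 129 CPM (0.48).

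The genes beside each member on the chromosome were also measured, over 500 kb on each side. Around Tet3, 17 genes at 10 CPM or more in progenitor-like cells had a median log2 ratio of 0.18 and ran from -0.25 to 1.46, so that each lay above the -1.15 of Tet3. By the size rule 1 was higher and 0 lower, beside 2.44% and 1.54% of all genes in progenitor-like cells. At those shares 0 lower of 17 does not set the neighbours apart. The nearest were Bola3, a mitochondrial iron-sulfur factor 2237 bp away (46.5 and 48.9 CPM, 0.07), and Mob1a, a Hippo pathway adaptor (39.4 and 43.1 CPM, 0.13), on one side, and Dguok, a mitochondrial nucleoside kinase (39.2 and 59.1 CPM, 0.59), and Stambp, a deubiquitinase (22.7 and 29.7 CPM, 0.39), on the other. The higher one was the homeobox gene Lbx2 (8.11 and 22.3 CPM, 1.46).

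Around Tdg, 5 genes ran from -0.34 to 1.46 with a median of 0.06. The nearest, a gene known only by a clone name 6586 bp away, had 19.9 and 15.7 CPM in progenitor-like cells (-0.34, -0.61 to -0.08) and 12.5 and 7.03 CPM in stroma-like cells (-0.83, -1.10 to -0.56), where Tdg had -0.79. In progenitor-like cells 1 of the 5 was higher by the size rule (2.44% of all genes were), a predicted gene at 4.85 and 13.3 CPM. Those with a gene name included Nfyb, a subunit of the CCAAT-binding factor NF-Y, at 70.2 and 73.1 CPM (0.06) and Zfp938 at 19.0 and 19.95 CPM (0.07). Around Tet2, 3 genes had ratios of 0.13 to 0.48, namely Ppa2, a mitochondrial pyrophosphatase (33.7 and 37.0 CPM, 0.13), Ints12, an Integrator subunit (11.8 and 16.4 CPM, 0.48), and Gstcd (9.53 and 11.1 CPM, 0.21). Around Tet1, 11 genes had a median of 0.04 and ran from -0.60 to 1.02. On one side were Ccar1, a cell cycle and apoptosis regulator 12202 bp away (166 and 170 CPM, 0.03), and the helicase gene Ddx50 (213 and 175 CPM, -0.28). On the other were the mitochondrial carrier gene Slc25a16 (19.7 and 13.0 CPM, -0.60) and Rufy2, an endosomal effector (28.8 and 33.3 CPM, 0.21). By the size rule 1 of the 11 was higher, Pbld1 at 24.0 and 48.6 CPM (1.02), beside 2.44% of all genes.

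**Figure D4:**
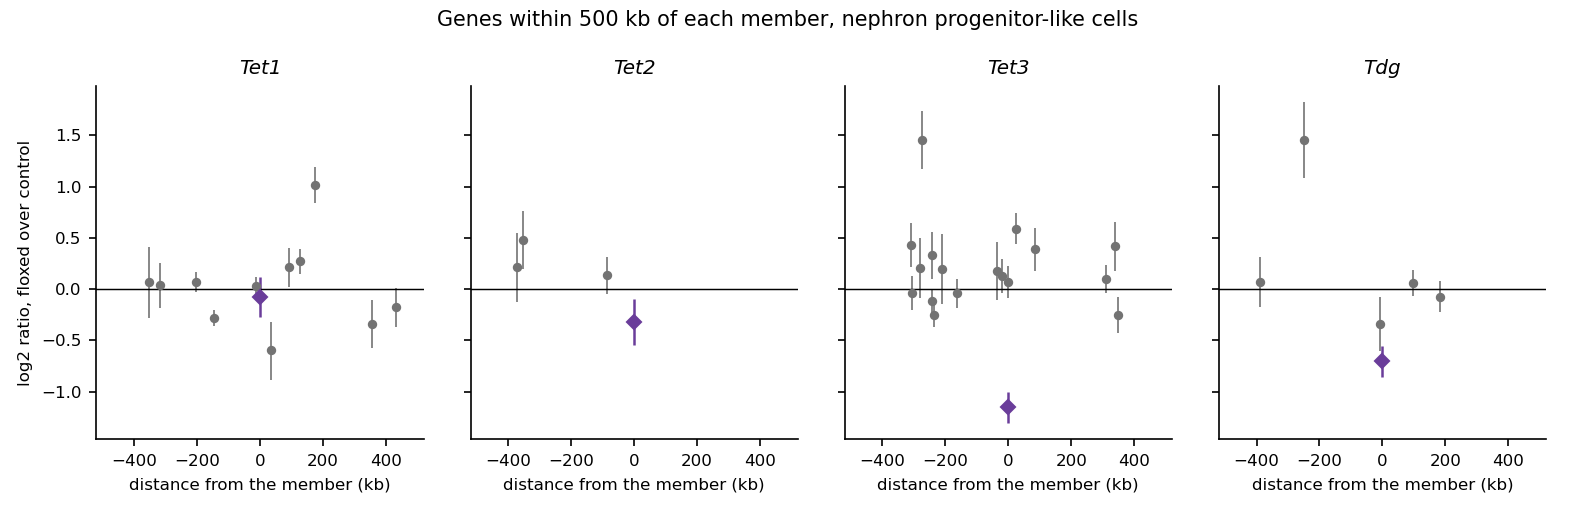
Log2 ratio of floxed over control in progenitor-like cells for each member (purple diamond) and the genes within 500 kb measured at 10 CPM or more (grey points), against distance from the member in kb, negative toward lower chromosome positions; bars are 95% intervals for counting error. The 17 neighbours of Tet3 lie between -0.25 and 1.46, above its own -1.15, and the 5 neighbours of Tdg between -0.34 and 1.46, above its own -0.70.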

How the data were processed

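Whole newborn kidney was profiled by droplet single-cell RNA sequencing, 1 library per genotype. The authors deposited UMI counts per gene and barcode, made with Cell Ranger 6.0.2 against mm10 per the submitters' processing notes (6.0.1 per the file headers); the annotation release is not given in the sources used here. Barcodes with at least 1000 UMIs, 500 genes and under 15% mitochondrial UMIs were kept, and the 8% with the highest doublet scores were removed, since the automatic threshold marked 2507 control and 0 floxed barcodes. Cells were clustered jointly (scanpy 1.11.5, 2000 variable genes, 30 components, 15 neighbours, Leiden resolution 1) and the 29 clusters named by markers, with 5 unnamed. UMIs were summed per class and library. Intervals were Poisson for CPM, conditional binomial for ratios, Clopper-Pearson for shares and a normal approximation on the log scale for differences of ratios. The intervals and the size rule were tested on simulated data. The depth was 197745868 control and 115427704 floxed UMIs.

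Named were the 4 members, pathway genes past the size rule and otherwise up to 10 by control progenitor level, the 3 genes most alike to each member, and the 2 nearest measured neighbours on each side plus any past the size rule, without mitochondrial, ribosomal, haemoglobin, sex-linked and predicted genes. Members and lists were chosen with earlier results of these data known. Alternatives covered cell filters, doublets, clustering, gating, scaling, depth and cycling. Values of some marker genes are not reported here.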

Additional observations from a re-analysis of the deposited data

Results flagged for a closer look

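Tet1 was on opposite sides of 0 in different classes, with counting intervals that left out 0. The log2 ratio of floxed over control was above 0 in committed nephron-like (0.305), proximal tubule-like (0.581), loop and distal tubule-like (0.395), ureteric bud and collecting duct-like (0.287), stroma-like (0.386), neutrophil-like (3.23) and erythroid-like cells (1.49), and below 0 in macrophage-like cells (-1.49). The neutrophil-like value rests on 1 control and 9 floxed UMIs, the erythroid-like one on 6 and 36, and the macrophage-like one on 27 and 6. With 1 library per genotype the difference between classes was not tested.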

How the results depend on the processing

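Over the alternatives, the Tet3 log2 ratio in progenitor-like cells ran from -1.22 to -0.998, that of Tdg from -0.77 to -0.68, and the progenitor minus stroma difference for Tet3 from -0.93 to -0.60. The Tet3 value of -0.998 came without doublet removal. In stroma-like cells Tet2 went from -0.16 to 0.21 with the planned gate per barcode and to -0.026 with a looser cell filter. Tet1 there (0.39) was 0.23 with a stricter filter and 0.61 with that gate. Tet3 there (-0.38) was -0.22 with that gate, -0.51 over the 10000 deepest barcodes and -0.21 with cells thinned to 2000 UMIs, which put Tdg at -0.95. Thinned to 3000 UMIs, the progenitor-like share differed by -11.8 percentage points for Tet3 (-7.67 at 2000) and -2.30 for Tet2 (-0.32). At a minimum of 25 CPM the genes higher and lower were 113 and 74 in progenitor-like and 88 and 106 in stroma-like cells, fewer because fewer genes were tested. The causes of the other shifts were not tested. The planned gate left 0 progenitors, so a narrower gate was chosen after seeing the data, as were the 10000 deepest barcodes, the thinned ratios, the larger progenitor cluster alone and leaving out shared barcodes. Low counts limit neutrophil- and erythroid-like values most. No paired analysis was possible because each genotype has 1 library.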
